A study of Mus musculus with 3 samples.

Results

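*Heatr7b1* was the gene with the most mixed-allele sites in a table of exonic single-nucleotide variants from 3 haploid mouse ESC lines, and it was chosen for that property. Every position that the table assigned to the gene and that held single-base alleles was taken, which gave 191 of the 11635 positions of the table. At 189 of the 191, a single alternate base was listed, and shares, medians and tests used these 189 of the 11544 positions of that kind. The other 2 positions held a pair of alternate bases and are described on their own.

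The genomes of 3 C57BL/6 lines kept in 2i/Lif medium were sequenced from a single library each. The starting line was O48 (WT, passage 40), an androgenetic haploid ESC line: its only chromosome set comes from sperm, and its H19 and IG DMRs are deleted. ΔDSM-O48-1 cells (Dmpk;Six5;Mbnl1-KO, passage 60) were obtained from O48 cells by CRISPR-Cas9 mutation of *Dmpk*, *Six5* and *Mbnl1*. ΔDSMD-O48-2 cells (Dmpk;Six5;Mbnl1;Dmwd-KO, passage 70) were derived from ΔDSM-O48-1 cells, so all 3 lines share the DMR deletions, and each knockout line was expanded from a single clone. The series was made to look for off-target changes of the nuclease. The targeted genes could not be checked for their edits in a table of substitutions; it listed 6 sites in *Dmpk* and 0 in *Six5*, *Mbnl1* and *Dmwd*. With no replicate library, intervals and tests below cover counting error and compare libraries, not conditions.

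*Heatr7b1* is an older symbol of *Mroh2a*, maestro heat-like repeat family member 2A. HEAT repeats are paired helices that stack into an elongated scaffold on which other proteins can dock. A haploid cell holds a single copy of each chromosome outside DNA replication, so that a position present once in its genome is read with a single base. Where a genome holds more copies of a segment than the reference does, short reads from all copies can be placed on the same reference position.

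In GRCm38.p6, *Mroh2a* lies on the plus strand of chromosome 1, and its curated RefSeq transcript extends over chr1:88227020-88262289 with 42 exons, 7502 exonic bases and a protein of 1671 residues. The 189 sites spanned 35193 bp, from 88227091 to 88262284. Exon and residue numbers given here are those of the table, whose gene model differs from the annotation. Of the sites, 25 had the same exon number in the annotation, 163 had a number 1 higher in the table, and 1 lay outside the annotated exons. At 134 of 135 coding sites, the listed amino acid change was recovered by translating the annotated coding sequence; the other was the site outside the annotated exons. Sites fell in 41 of the 42 annotated exons, all but exon 2, at 1 site per 39.7 exonic bases, or 37.2 coding bases per coding site.

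The sequences of 5 stretches show how closely the sites lie and where the stop changes discussed below fall. They are the plus strand of GRCm38.p6 from 5′ to 3′, with each position listed in the table in capitals. The first 4 are whole exons that each hold a stop-gain site, and the last is the coding part of the final exon, where a position with 3 bases lies.
Exon 5, chr1:88230626-88230788: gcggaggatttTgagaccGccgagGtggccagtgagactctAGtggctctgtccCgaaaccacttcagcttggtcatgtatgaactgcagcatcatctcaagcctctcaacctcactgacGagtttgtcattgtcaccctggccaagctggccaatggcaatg
Exon 20, chr1:88241543-88241650: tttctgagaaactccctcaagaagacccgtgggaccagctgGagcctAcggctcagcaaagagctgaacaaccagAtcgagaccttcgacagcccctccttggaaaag
Exon 28, chr1:88248552-88248656: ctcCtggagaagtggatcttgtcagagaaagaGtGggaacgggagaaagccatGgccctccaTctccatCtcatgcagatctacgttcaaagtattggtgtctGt
Exon 38, chr1:88256651-88256833: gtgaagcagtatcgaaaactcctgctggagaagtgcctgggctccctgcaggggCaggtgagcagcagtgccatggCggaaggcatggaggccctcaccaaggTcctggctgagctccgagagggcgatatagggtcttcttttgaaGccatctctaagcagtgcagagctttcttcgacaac
Exon 43, coding part, chr1:88259905-88260026: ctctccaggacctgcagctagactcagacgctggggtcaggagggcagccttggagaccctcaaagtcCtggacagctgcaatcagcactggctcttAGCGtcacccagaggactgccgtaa
Exon 5 held 7 positions in 163 bases and exon 28 held 7 in 105, while exon 38 held 4 in 183.

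Nearly all sites were read as a mixture of both bases in every line. A heterozygous genotype with at least 10 reads, called mixed here, was given to 185 of the 189 sites in O48 cells, 185 in ΔDSM-O48-1 cells and 184 in ΔDSMD-O48-2 cells, and to 179 sites in all 3 lines. No site was homozygous for the alternate base in any line. These 179 were 5.22% of the 3427 sites of the table that were mixed in all 3 lines. They exceeded the counts of the next genes by number, *Vmn2r121* with 100, *Vmn2r115* with 92, *Muc4* with 73, *Vmn2r117* with 64 and id8260 with 62. The gene was selected on this count, which is therefore a description.

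The alternate share, which is the percentage of reads at a site that carried the alternate base, had a median over the 189 sites of 20.8% in O48 cells, 20.4% in ΔDSM-O48-1 cells and 20.1% in ΔDSMD-O48-2 cells. The sites above 70% stood apart from the rest in each line. With the reads of the 3 lines pooled, no site lay between 21.3% and 24.6%, between 35.9% and 42.2% or between 64.2% and 77.4%. These gaps, seen in the data, were used to divide the sites into 4 groups at pooled shares of 23%, 40% and 70%. Other empty stretches, from 52.9% to 58.7% and from 58.7% to 64.2%, were not used, so the division is not the only possible one. In single lines the lower groups overlapped: the lowest group reached 24.8%, 23.3% and 23.9% in O48, ΔDSM-O48-1 and ΔDSMD-O48-2 cells, and the next began at 22.9%, 22.5% and 20.1%.

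**Figure D1:**
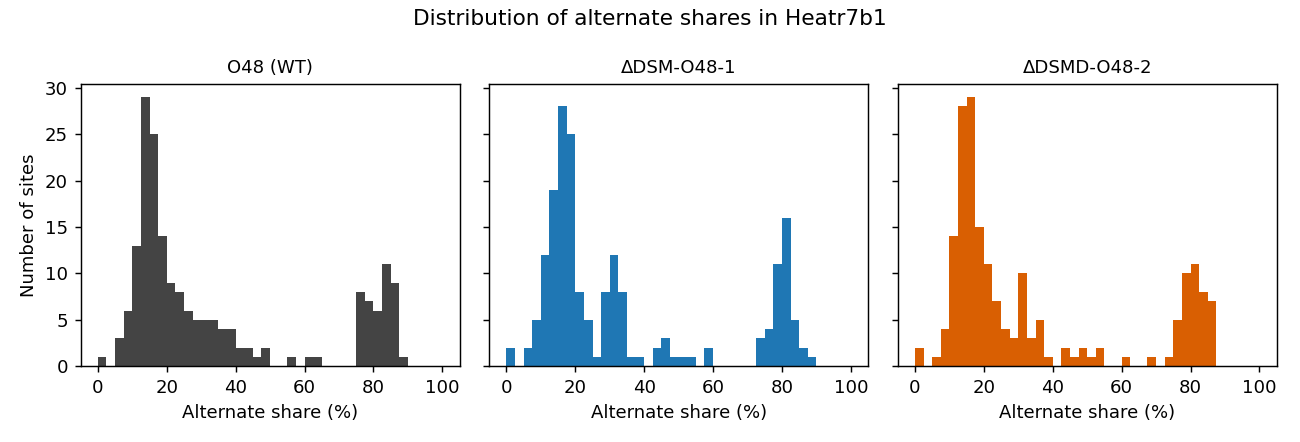
Number of *Heatr7b1* sites (y axis) by alternate share in percent (x axis, bins of 2.5 points) in each of the 3 lines. Most sites lie below 23%, and 42 sites form a separate group above 70% in each panel.

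In the lowest group, 104 sites had a median pooled share of 15.7%, with line medians of 15.1% in O48 cells, 16.3% in ΔDSM-O48-1 cells and 15.3% in ΔDSMD-O48-2 cells. The second group of 33 sites had a pooled median of 31.0%, and the next group, of 10 sites, had one of 48.7%. In the highest group, 42 sites had a pooled median of 80.8%, so the reference base was the minor one, with a median of 19.2% of reads. The medians of these intermediate groups were 1.97 and 3.09 times that of the lowest group. Within the highest group, the SD of the pooled shares was 1.41 points, below the mean binomial SD of 1.8 that counting error gives. The lowest group was wider, with an SD of 2.75 points against 1.64, and it held all 10 sites whose genotype differed between the lines. In the group of 33 sites the SD was 2.72 points against 2.07. The group of 10 sites was the widest, with an SD of 6.61 points against 2.31 and shares from 42.2% to 64.2%. Its median thus stands for unlike shares.

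At the sites of the lowest group the median number of alternate reads was 25 in O48 cells, 26 in ΔDSM-O48-1 cells and 24 in ΔDSMD-O48-2 cells. At the sites of the highest group the median number of reference reads was 29, 31.5 and 30.5 in the same order. Sites of the table that were homozygous for the alternate base in all 3 lines, which lie outside this gene, had median depths of 30, 31 and 30 reads. Thus the minor base of the highest group was read 0.967, 1.02 and 1.02 times as often as a homozygous site, and the alternate base of the lowest group 0.833, 0.839 and 0.80 times as often.

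**Figure D2:**
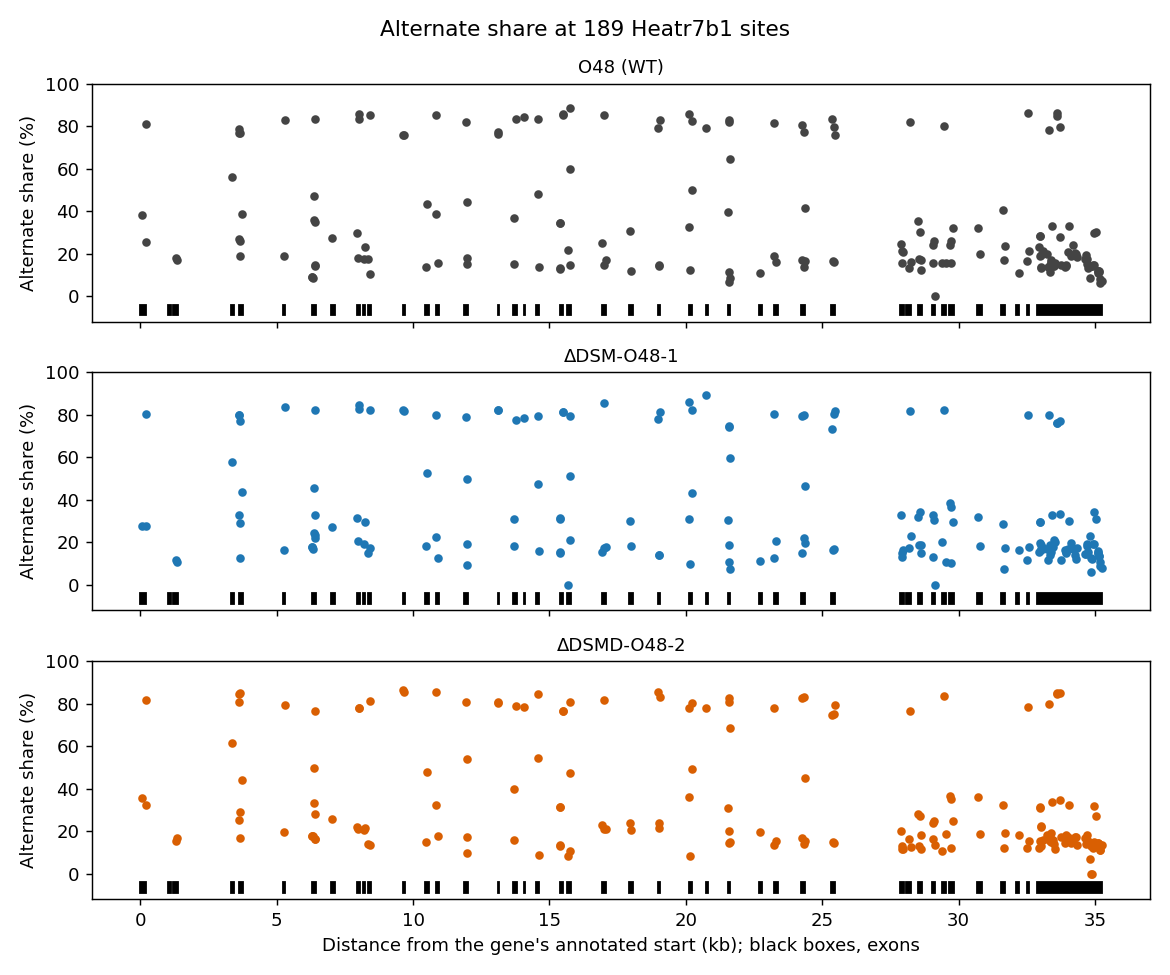
Alternate share in percent (y axis) at 189 sites against the distance from the annotated start of the gene in kb (x axis), with a panel per line and exons as black boxes. Sites above 70% and sites below 23% occur side by side along the gene, and both kinds were present in 22 exons.

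Sites of different groups were interleaved along the gene. The lowest group was present in 34 exons and the highest in 27, and 22 exons held both. In exon 5, F135 was synonymous and had the alternate base in 112 of 142, 138 of 173 and 114 of 141 reads of O48, ΔDSM-O48-1 and ΔDSMD-O48-2 cells. V146M, in the same exon, had it in 25 of 132, 20 of 159 and 25 of 149 reads. The 3′ UTR differed in its makeup, since 42 of its 51 sites belonged to the lowest group and 4 to the highest. Over the gene, the exact 95% interval of the share lay below 50% in all 3 lines at 137 sites and above 50% in all 3 lines at 43 sites.

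The depth at the gene was about 5 times that of the table. Over the 189 sites the median depth was 161 reads in O48 cells (range, 100 to 200), 165 in ΔDSM-O48-1 cells (105 to 197) and 158 in ΔDSMD-O48-2 cells (103 to 224). The medians over the table were 32, 33 and 32 reads, which made ratios of 5.03, 5.0 and 4.94. Against the homozygous sites the ratios were 5.37, 5.32 and 5.27. All 189 sites were read at over 3 times the table median in each line, though the excess varied between exons. Exon medians ran from 125 to 193 reads in O48 cells, from 110 to 191 in ΔDSM-O48-1 cells and from 110 to 217 in ΔDSMD-O48-2 cells. Relative to the other sites of chromosome 1, the ratios were only 1.10, 1.19 and 1.11, since many listed sites of that chromosome were as deep.

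**Figure D3:**
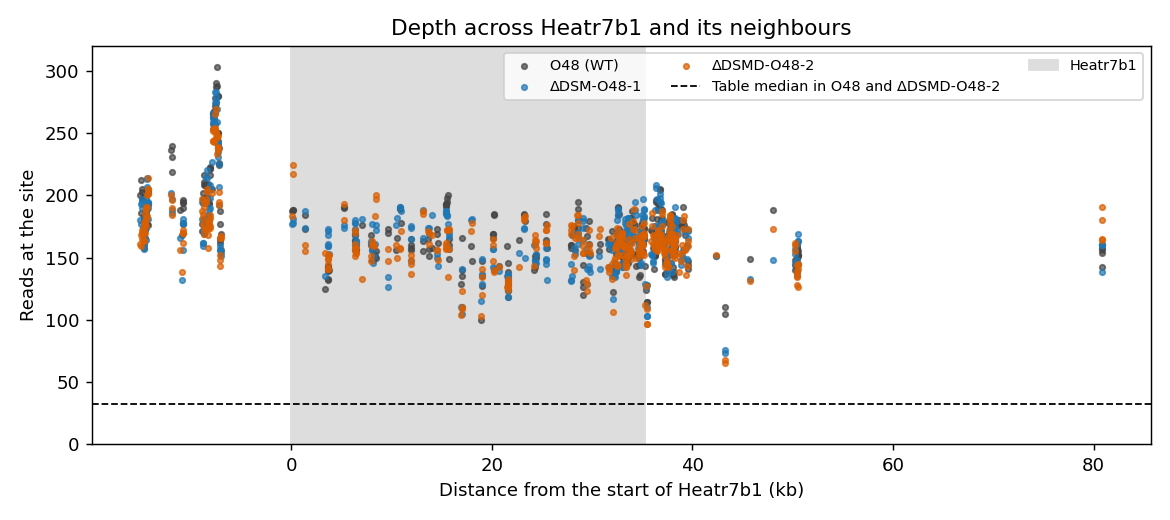
Reads at each listed site (y axis) against the distance from the start of *Heatr7b1* in kb (x axis) for the 3 lines, with the gene shaded and the table median of O48 and ΔDSMD-O48-2 cells, 32 reads, dashed. The raised depth runs on through the neighbouring genes on both sides.

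Deep and mixed sites were not limited to *Heatr7b1*. Upstream, the nearest genes with listed sites were *Ugt1a10* and *Ugt1a9*, which encode UDP-glucuronosyltransferases that conjugate small lipophilic molecules. *Ugt1a10* had 47 sites at median depths of 223, 215 and 202 reads in O48, ΔDSM-O48-1 and ΔDSMD-O48-2 cells, and 44 of them were mixed in all 3 lines. *Ugt1a9* had 19 sites at 202, 178 and 177 reads, all 19 mixed in all 3 lines. Downstream, *Hjurp*, the chaperone that loads the centromeric histone CENP-A, overlapped the end of the gene and had 58 sites at 156, 152 and 156 reads, 55 of them mixed in all 3 lines. The unnamed gene id8260 followed 910 bp after the gene and had 70 sites at 171, 166 and 163 reads, with 62 mixed in all 3 lines.

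The genes farther out were chosen after their values were seen. *Ugt1a1* had 31 sites at 184, 183 and 178 reads, and *Trpm8*, a cold-sensing ion channel gene, had 4 sites at 155, 160 and 173 reads. Between 88211967 and 88307897, a stretch of 95930 bp, 393 of 418 sites were mixed in all 3 lines and 0 were homozygous for the alternate base in all 3. The next listed sites outside it lay in *Eif4e2*, 987479 bp before the gene, at median depths of 32, 25.5 and 23.5 reads, and in *Agap1*, 1193018 bp after it, at 9, 13 and 13 reads. Depth was not even within the stretch. Sites stayed at or above 3 times the highest table median, 33 reads, in every line without a break from 88211967 to 88262512. That run is 50545 bp with 305 sites. It ended at 88262536, where only ΔDSMD-O48-2 cells, with 97 reads, were just below the limit. O48 and ΔDSM-O48-1 cells had 114 and 103 reads there. At 88262939 the 3 lines had 172, 153 and 163 reads. Beyond that, a pair of *Hjurp* sites at 88270269 and 88270274 had 110 and 105 reads in O48 cells, 76 and 73 in ΔDSM-O48-1 cells and 68 and 65 in ΔDSMD-O48-2 cells. No exonic site was listed between the stretch and *Eif4e2* or *Agap1*, so its ends were not resolved.

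By median share and depth at sites mixed in all 3 lines, the 5 genes most like *Heatr7b1* among the 97 genes with at least 10 such sites were *Gm15433*, id8260, *Hjurp*, *Sp110* and id77606. Likeness was the Euclidean distance over 3 shares and 3 log2 depth ratios, and it ran from 0.10 to 0.23. *Gm15433* and *Sp110* lie on the same chromosome at 84963696 to 84964548 and at 85577029 to 85603883. *Sp110* had 37 mixed sites with median shares of 23.7%, 24.2% and 23.6% at 5.47, 5.03 and 4.84 times the table median. id77606, on chromosome 5, had 25 with shares of 21.6%, 22.1% and 21.1%. Other genes of the table with a Heatr name were sparse, with 1 site in *Heatr2* and 2 in *Heatr8*, and 0 of these were mixed in all 3 lines.

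No second copy of the gene was found in the reference. A search with each of the 189 sites and 50 bases on either side of it found a second place for 0 of them, at 85% identity over at least 80 bases, and also 0 at 80% or 90% identity. The 189 alternate bases could therefore not be found at another place of GRCm38.p6 by this search. The 35270 bp of the transcript span, with repeats masked (10.8% of its bases), matched elsewhere at 85% identity only as 2 matches of 68 bases within itself. There were 0 gaps in the reference within 500 kb on either side. Whether the reads of several copies were placed on this gene was not tested; the depth, the groups of shares and the search are the values that bear on it.

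The coding sites changed the protein about as often as they left it intact. Of 189 sites, 66 were synonymous, 63 nonsynonymous and 6 stop-gained, 51 lay in the 3′ UTR, 2 in the 5′ UTR, and 1 in the 5′ UTR was listed as start-gained. The amino acid changed at 51.1% of the 135 coding sites (exact 95% interval, 42.4 to 59.8%). This share was 70.7% (68.8 to 72.6%) over the sites mixed in all 3 lines outside the gene and 49.2% (47.2 to 51.1%) over sites homozygous for the alternate base in all 3 lines. Transitions, changes within the purines or within the pyrimidines, made up 68.8% of the sites (61.7 to 75.3%), against 55.8% (54.1 to 57.5%) of the mixed sites outside the gene and 71.0% (69.6 to 72.4%) of the homozygous sites. Transitions at CpG dinucleotides were 34 of 189 sites, or 18.0%, against 9.98% and 12.1% in these classes.

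The effect of a site varied with its share. In the highest group, the amino acid changed at 24.3% of 37 coding sites (exact 95% interval, 11.8 to 41.2%), as 9 nonsynonymous and 0 stop-gained sites. It changed at 59.7% of 62 coding sites in the lowest group (46.4 to 71.9%), at 61.5% of 26 in the group of 23 to 40% (40.6 to 79.8%) and at 70.0% of 10 in the group of 40 to 70% (34.8 to 93.3%). Since the groups were set on the values, no test was made. CpG transitions were 7.14% of the highest group and 19.2% of the lowest.

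**Figure D4:**
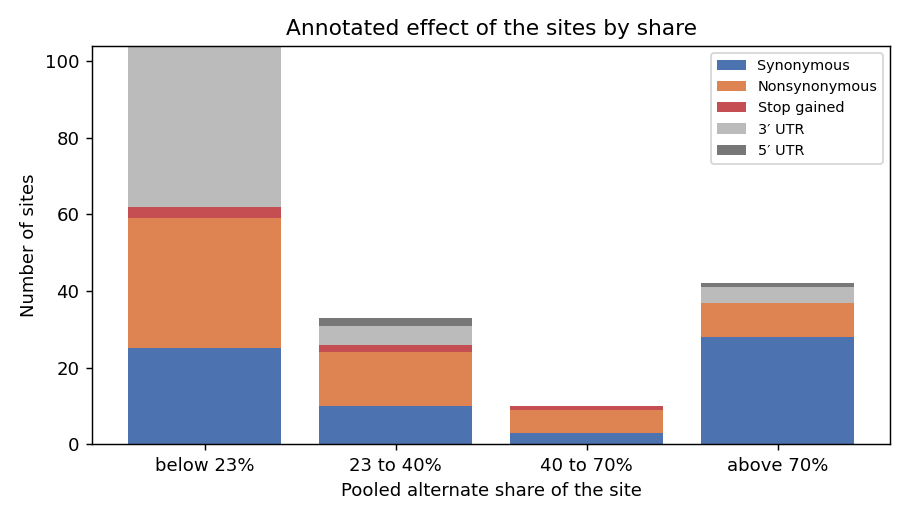
Number of *Heatr7b1* sites (y axis) by pooled alternate share (x axis, 4 groups), stacked by annotated effect. Synonymous sites number 28 of 42 above 70% and 25 of 104 below 23%, and all 6 stop-gained sites lie below 70%.

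The 6 stop-gained sites were spread over the protein and had no more than about equal numbers of stop and reference reads. R150* (C88230680T, exon 5, CGA to TGA) falls at 8.98% of the annotated protein. It had the stop base in 36 of 139 reads in O48 cells, 46 of 159 in ΔDSM-O48-1 cells and 44 of 152 in ΔDSMD-O48-2 cells, shares of 25.9%, 28.9% and 28.9%. Q360* (C88235214T, exon 11, CAG to TAG) had it in 26 of 148, 28 of 146 and 33 of 161 reads. R448* (C88237491T, exon 14, CGA to TGA) had it in 21 of 156, 32 of 176 and 24 of 160 reads. These 3 sites changed little between the lines, and their intervals overlapped in all 3.

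W660* (G88241584A, exon 20, TGG to TGA) was the stop with the highest share, in 81 of 169, 71 of 150 and 85 of 156 reads, or 47.9% (exact 95% interval, 40.2 to 55.7%), 47.3% (39.1 to 55.6%) and 54.5% (46.3 to 62.5%). Q1445* (C88256705T, exon 38, CAG to TAG) was in 43 of 179, 58 of 151 and 63 of 172 reads and falls at 86.0% of the annotated protein. Its share of 24.0% in O48 cells was below the 38.4% and 36.6% of the other lines. The adjusted p by Fisher's exact test was 0.0974 for ΔDSM-O48-1 against O48 cells and 0.132 for ΔDSMD-O48-2 against O48 cells. W962* (G88248586A, exon 28, TGG to TAG) was in 9 of 138 reads in O48 cells, where the genotype was the reference, and in 26 of 137 and 18 of 124 reads in the mixed knockout lines. O48 cells were the lowest at 6.52% (3.03 to 12%), against 19.0% (12.8 to 26.6%) and 14.5% (8.84 to 22.0%). The adjusted p for ΔDSM-O48-1 against O48 cells was 0.05002 by Fisher's exact test and just missed the threshold. With a depth minimum of 20 reads it was 0.0486. For ΔDSMD-O48-2 against O48 cells the adjusted p was 0.311 by the same test. The table listed C88227091T in exon 1 as start-gained. The change forms no ATG, but it turns a CCG triplet into CTG.

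The alternate base was in most of the pooled reads at 45 sites, and in each line at 44 of these. Among the 45, 11 were nonsynonymous. V140M in exon 5 had the alternate base in 110 of 143, 134 of 168 and 119 of 141 reads of O48, ΔDSM-O48-1 and ΔDSMD-O48-2 cells. M884L in exon 26 had it in 145 of 169, 135 of 157 and 129 of 165 reads. The others above 70% were R213C, R401H, I419M, A578V, V856A, T924A and C1074F, with pooled shares of 80.4% to 82.8%. S753L and L974F were at 52.9% and 64.2%, and S753L was the site that fell below 50% in a line, with 82 of 173 reads in ΔDSMD-O48-2 cells.

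The highest pooled share of the gene was 84.2% at Q791, a synonymous site in exon 23, followed by R484, M884L, E754 and R401H at 82.8% to 83.5%. The lowest were T1371M at 4.49% and 4 sites of the 3′ UTR at 6.74% to 9.11%, and all 5 had different genotypes in the 3 lines. The deepest sites were a pair in the 5′ UTR, A88227227G and C88227221G, with 593 and 583 pooled reads, then T202M, D718 and N717 with 550 to 559.

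Sites within a codon tell whether their bases were read in equal numbers, although the table does not say which bases shared a read. In residue 687, G88242417T and G88242418T were each in 66 reads of O48 cells, 58 of ΔDSM-O48-1 cells and 51 and 50 of ΔDSMD-O48-2 cells. The table lists them as R687M and R687S, while a codon with both bases, ATT in place of AGG, reads isoleucine. In the next residue, C88242420A and C88242421A were in 25 and 25, 29 and 28, and 21 and 21 reads. Listed as A688D and a silent change, they read glutamate when combined (GCC to GAA). The counts of residues 687 and 688 differed although the codons are adjacent. Residue 1158 held sites of unlike shares, T1158I in 26 of 164, 25 of 149 and 25 of 172 reads and a silent change in 129 of 162, 119 of 148 and 129 of 172 reads. Of 21 pairs of successive sites no more than 5 bp apart, 6 had alternate read counts within 2 reads of each other in all 3 lines, and 11 belonged to different groups of share.

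Near the end of the coding sequence, at 88260002, the reference A was in 23 of 162 reads of O48 cells, C (A88260002C, L1672F) in 30 and G (A88260002G, silent) in 109. ΔDSM-O48-1 cells had 31 reads of A, 31 of C and 95 of G, and ΔDSMD-O48-2 cells had 34, 28 and 109. All 3 bases were thus read in each line. In the adjoining codon, G88260003T (A1673S) was in 30, 31 and 26 reads, close to the counts of C. C88260004T (A1673V) and G88260005A were in 45 and 45, 46 and 46, and 53 and 53 reads. The other position with 3 bases, 88262075 in the 3′ UTR, had A and C in 22 and 22 of 163 reads in O48 cells, 33 and 32 of 195 in ΔDSM-O48-1 cells, and 29 and 25 of 170 in ΔDSMD-O48-2 cells.

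The 3 lines had similar shares at nearly all sites. Across the 189 sites, Pearson's r of the shares was 0.979 for ΔDSM-O48-1 and O48 cells, 0.981 for ΔDSMD-O48-2 and ΔDSM-O48-1 cells and 0.980 for ΔDSMD-O48-2 and O48 cells, as a description over sites that share libraries and reads. Within the lowest group alone it was 0.194, 0.177 and 0.132, so that the overall value reflects the separation of the groups. The median absolute difference at a site was 3.18, 3.72 and 3.50 points for these pairs, and the median signed difference was 0.19, 0.06 and 0.03 points.

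The reads of each pair of lines were compared at each site by a two-sided Fisher's exact test, with Benjamini-Hochberg adjustment over all substitutions with at least 10 reads in both lines. The gene was chosen for its number of sites mixed in all 3 lines, and all its sites were kept. ΔDSM-O48-1 and O48 cells differed at 3 of 189 sites (1.59%), against 4.04% of the 10881 sites tested over the table. ΔDSMD-O48-2 and ΔDSM-O48-1 cells differed at 5 sites (2.65%), against 4.36% of 10861. ΔDSMD-O48-2 and O48 cells differed at 4 sites (2.12%), against 5.13% of 10825. The shares of called sites were below those of the table. The choice of the gene favoured sites read alike in the 3 lines, so this is a description. Among all sites mixed in all 3 lines, 1.11%, 1.17% and 1.40% were called. That set is unlike the 189, which include sites mixed in fewer lines. Of the called sites of the gene, only R484L, for ΔDSM-O48-1 against O48 cells, was mixed in all 3 lines. The comparisons share libraries and are not independent of each other.

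**Figure D5:**
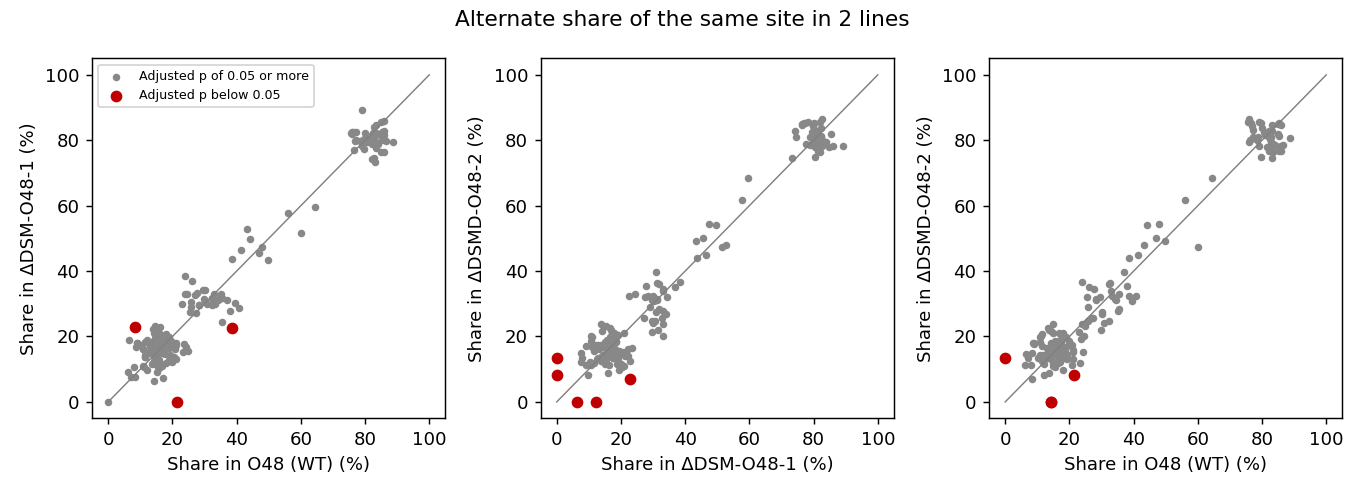
Alternate share in percent of each *Heatr7b1* site in 1 line (y axis) against another (x axis), for the 3 pairs of lines, with the line of equal shares in grey. Red points, 3, 5 and 4 in the panels from left to right, passed Fisher's exact test with an adjusted p below 0.05.

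A total of 6 sites passed in at least 1 comparison. L730 (G88242692A, exon 22, silent) was in 43 of 200 reads of O48 cells and in 0 of 177 of ΔDSM-O48-1 cells. With a limit of 3 reads, this count of 0 allows a share of up to 1.69%. The exact 95% interval reaches 2.06%. L730 was again present in 11 of 134 reads of ΔDSMD-O48-2 cells, which descend from ΔDSM-O48-1 cells. It passed in all 3 comparisons, with adjusted p of 4.05e-11 for ΔDSM-O48-1 against O48 cells, 0.00399 for ΔDSMD-O48-2 against ΔDSM-O48-1 cells and 0.0302 for ΔDSMD-O48-2 against O48 cells by Fisher's exact test.

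T1371M (C88256155T, exon 36) was in 0 of 144 reads of O48 cells, 0 of 182 of ΔDSM-O48-1 cells and 22 of 164 of ΔDSMD-O48-2 cells. With a limit of 3 reads, the counts of 0 allow shares of up to 2.08% and 1.65%. The exact 95% intervals reach 2.53% and 2.01%, while the share in ΔDSMD-O48-2 cells was 13.4% (exact 95% interval, 8.60 to 19.6%). It was the single site of the 189 read in ΔDSMD-O48-2 cells and in 0 reads of both other lines, with adjusted p of 6.35e-06 against ΔDSM-O48-1 and 3.32e-05 against O48 cells by Fisher's exact test.

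A pair of sites in the 3′ UTR ran the other way. A88261889G was in 23 of 163, 9 of 144 and 0 of 168 reads in the order of descent, and G88261919C, 30 bp on, in 23 of 163, 18 of 146 and 0 of 163. The counts of 0 in ΔDSMD-O48-2 cells allow shares of up to 1.79% and 1.84%. These 2 sites are close enough to share reads, so they are not independent. Both passed against ΔDSM-O48-1 cells (adjusted p, 0.0262 and 8.40e-05) and against O48 cells (adjusted p, 2.91e-06 and 7.62e-06) by Fisher's exact test. C88261841T, also in the 3′ UTR, was in 14 of 165, 39 of 171 and 11 of 156 reads and was thus highest in ΔDSM-O48-1 cells. It passed for ΔDSM-O48-1 against O48 cells and for ΔDSMD-O48-2 against ΔDSM-O48-1 cells, but not for ΔDSMD-O48-2 against O48 cells. With no depth minimum, the adjusted p of the comparisons it passed was 0.0139 and 0.00483 by Fisher's exact test. R484L (G88237852T, exon 15) was in 73 of 189, 43 of 191 and 51 of 158 reads and passed for ΔDSM-O48-1 against O48 cells, with an adjusted p of 0.0271 by Fisher's exact test.

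Genotypes differed between the lines at 10 sites. In addition to L730, W962*, T1371M and the 3 sites of the 3′ UTR above, these were T894 in 20 of 166, 14 of 142 and 12 of 147 reads, S1567G in 28 of 164, 12 of 162 and 17 of 138, C88262216A in 10 of 165, 15 of 165 and 17 of 152, and T88262284A in 10 of 143, 10 of 129 and 15 of 112. These last 4 passed in 0 of the 3 comparisons by Fisher's exact test. They had low shares in each line, and a reference genotype was given to a line in which the alternate base was read.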

How the data were processed

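Whole-genome sequencing of 3 haploid ESC lines, 1 library each, was used. Per the submitters' processing notes, CASAVA 1.8.2, BWA 0.7.12, SAMtools, Picard and GATK were used with mm10; the variant filters are not given in the sources used here. The deposited counts, made by the authors over the 3 libraries together, are numbers of reads per site and line: all reads, those with the reference base and those with the alternate base, not normalized. The depth of the gene, 100 to 224 reads per site, sets the precision of each share. Reads of multi-copy sequence can be placed on a single reference position, which raises depth and mixes bases.

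Each position was kept once, with its effect of highest impact. All 11544 reference bases equalled those of GRCm38.p6. The gene, the lists and the tests were chosen with earlier results of these data known. Sites were named by rule: stop and start changes, different genotypes, an adjusted p below 0.05, the 5 highest and lowest shares, the 5 deepest; for other genes, the nearest 2 on each side, those with most mixed sites and those most alike. Codons, majority sites, share groups and outer genes were chosen after values were seen. Intervals were exact Clopper-Pearson at the 95% level, and a count of 0 was given the limit of 3 reads. Lines were compared by Fisher's exact test with Benjamini-Hochberg adjustment. In simulated reads with 200 sites shifted by 30 points at 100 or more reads, 200, 199 and 197 were recovered for ΔDSM-O48-1 against O48 (10881 sites), ΔDSMD-O48-2 against ΔDSM-O48-1 (10861) and ΔDSMD-O48-2 against O48 (10825), with 2, 1 and 2 false calls. Smaller shifts were not simulated, and the median absolute difference at a site of the gene was 3.18 to 3.72 points. Recovery of shifts smaller than 30 points is therefore not known. Other depths, reference sets, thinning, tests and identities were tried. The tools were BLAST 2.17.0, pysam 0.24.0, biopython 1.88, scipy 1.17.1, numpy 2.4.6, pandas 2.3.3, matplotlib 3.10.9 and Python 3.11.15.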

Additional observations from a re-analysis of the deposited data

How the results depend on the processing

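Of 56 alternative values for 15 results, 39 stayed close to the main value, meaning within counting error for shares and depth ratios and within 1.5 times for counts of sites, and 17 moved. Taking shares from 0.2 to 0.8 in place of the genotype lowered the mixed sites of O48 cells to 71, those of ΔDSM-O48-1 cells to 72 and those of ΔDSMD-O48-2 cells to 71, since most shares lie below 20% or above 80%. Pooling reads raised the median share at mixed sites (21.1%, 20.9% and 20.9%) to 35.1%, 34.9% and 35.1%, and keeping 1 site per 150 bp gave 28.5%, 30% and 25.6%. The depth ratio was 2.23, 2.22 and 2.20 with means in place of medians and 1.10, 1.19 and 1.11 against other sites of chromosome 1. At an unadjusted p below 0.05, 18 sites differed for ΔDSM-O48-1 against O48 cells (9.52%, against 14.02% over the table). For ΔDSMD-O48-2 against ΔDSM-O48-1 cells 14 differed (7.41%, against 14.28%), and for ΔDSMD-O48-2 against O48 cells 21 (11.11%, against 14.51%). These shares were below those of the table, which is again a description. W962* was called in addition for ΔDSM-O48-1 against O48 cells with a depth of 20 reads (adjusted p, 0.0486) and with a z score (0.0462). Without replicate libraries, no spread between cultures was available. No paired analysis was possible because each line has 1 library.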
